A study of Homo sapiens with 4 samples.

Results

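The list of N6-methyladenosine (m6A) peaks of MDA-MB-231 cells held 343 peaks on 213 pseudogenes, of 20261 peaks on 10140 gene IDs in all. A peak was counted here when the gene ID that the list gives it matched a symbol whose RefSeq gene type was pseudogene or transcribed pseudogene, and no score entered the choice. Of the 343 peaks, 223 lay on 117 pseudogenes that RefSeq calls transcribed and 120 on 96 pseudogenes that it does not. MDA-MB-231 is an established line of human triple negative breast cancer cells, and the study mapped m6A in its poly(A) RNA by m6A-seq, in which fragmented RNA is pulled down with an anti-m6A antibody and compared with input RNA. The 4 libraries were 2 of input and 2 of immunoprecipitated (IP) RNA, all from shNS cells with no other condition to compare, and the labels do not spell shNS out. The treatment label of both IP libraries names YTHDC1, while their titles and protocol describe an antibody against m6A. The deposited list combined the libraries into 1 score per peak, read here as the p-value of the peak caller, so a smaller score is a stronger peak and no spread between replicates could be given. A score of 0 is a value too small to be stored and was ranked at a −log10 of 323.

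Pseudogenes are gene copies that have lost the ability to make the parent protein. Processed copies arise when an mRNA is reverse transcribed and inserted elsewhere in the genome, so they usually lack introns and often sit inside other genes, whereas duplicated copies keep the exon structure of the parent and may keep its promoter. m6A is placed on nascent RNA by the METTL3 and METTL14 complex in a short sequence context and is known to gather near stop codons and in long last exons of mRNAs. Because a copy and its parent are similar in sequence, short reads from one can align to the other, and the study's alignment kept reads with up to 20 locations.

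The sequences of 5 pseudogene peaks are shown because each belongs to a kind of gene described below: copies of abundant mRNAs (RPL21P118, PTMAP4), a copy inside another gene that carries the same peak (LRRFIP1P1), a copy with a stronger peak than the parent's (ZNRF2P2), and a weaker peak of GUSBP11, a copy whose strongest peak, not shown, exceeded the parent's. They are the bases of each peak that lay in a RefSeq promoter window of a neighbouring gene on GRCh38.p14, read on the strand of the pseudogene peak. Of the 213 pseudogenes 0 had a promoter window of their own, and 9 pieces of pseudogene peaks fell in a window of another gene. Capitals mark each match to the m6A context RRACH, here GGAC or GAAC and likewise AGAC or AAAC, each followed by any base but G, on the strand of the peak only. The whole 149-base peak of RPL21P118, a copy of the mRNA of a large-subunit ribosomal protein, at chr16:74313183-74313331 on the minus strand, held 2 matches. The 108 bases of the 202-base PTMAP4 peak (chr12:9240015-9240122, minus), a copy of the prothymosin alpha mRNA, held 1 match. The 55 bases of the 270-base LRRFIP1P1 peak (chr3:179259842-179259896, minus) held 1, as did the 65 bases of a 181-base GUSBP11 peak (chr22:23690763-23690827, minus), which is not that gene's strongest. The 167 bases of the 769-base ZNRF2P2 peak (chr7:29685089-29685255, minus) held 2.
RPL21P118: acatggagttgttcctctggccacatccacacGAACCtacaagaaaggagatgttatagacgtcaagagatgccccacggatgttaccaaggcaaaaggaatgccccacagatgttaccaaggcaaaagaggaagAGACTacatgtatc
PTMAP4: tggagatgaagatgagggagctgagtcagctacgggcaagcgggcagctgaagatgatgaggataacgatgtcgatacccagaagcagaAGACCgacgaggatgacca
LRRFIP1P1: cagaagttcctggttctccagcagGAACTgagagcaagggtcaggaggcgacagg
GUSBP11: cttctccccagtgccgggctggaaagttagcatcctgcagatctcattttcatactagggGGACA
ZNRF2P2: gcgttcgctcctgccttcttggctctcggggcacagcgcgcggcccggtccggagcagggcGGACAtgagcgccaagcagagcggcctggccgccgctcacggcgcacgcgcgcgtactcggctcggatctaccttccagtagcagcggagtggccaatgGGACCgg
Stretches of the same lengths cut from the 35116 RefSeq promoter windows held at least 1 match in 80.0% of windows at 149 bases, 70.3% at 108, 46.3% at 55, 52.2% at 65 and 83.0% at 167. A match is thus a description of these letters and no sign of a methylated base. All 5 pieces shown held a match, which was not so for the pieces left out. Those of CIDECP1 (120 bases, the whole of a weaker peak), ABCA17P (57) and SSR4P1 (17) held 0 matches. That of DPY19L2P3 (235) held 1. In promoter windows the shares at these lengths were 73.7%, 47.6%, 15.6% and 89.9%.

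Few pseudogenes carried a peak, and most that did carried 1. Of the 1268 RefSeq transcribed pseudogenes, 117 were listed, which is 9.23% (95% Wilson interval 7.75 to 10.9%), against 96 of 15614 pseudogenes not called transcribed, which is 0.615% (0.504 to 0.750%). Of the RefSeq protein-coding genes 40.8% carried a peak. These intervals and those that follow cover counting error only, and they treat peaks as independent although peaks of a gene share their source. A RefSeq gene could be found listed only where a gene ID was matched to its symbol. These shares therefore also depend on naming, to a degree that is not known. A single peak was listed for 144 of the 213 pseudogenes, or 67.6%, and the mean was 1.61 ± 1.23 peaks per pseudogene (SD over 213 genes), against 2.10 ± 1.50 per listed protein-coding gene (8176 genes). Most peaks were found on CENPBD1P and ZNF37BP, with 9 each, followed by ZNF252P with 7, GUSBP11 with 6, and C22orf46P, FAM86EP, PLEKHM1P1 and SLC9A7P1 with 5 each. ZNF37BP and ZNF252P are copies of zinc finger genes, a family of DNA-binding proteins.

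Pseudogene peaks were weaker than those of protein-coding genes. Their median score was 3.7e-05, a −log10 of 4.43, against a −log10 of 7.96 over 17147 protein-coding peaks and 4.66 over 1241 peaks of other non-coding genes. A score at or under the median of the whole list, 5.2e-08, was found for 90 of the 343 pseudogene peaks, 26.2% (21.9 to 31.1%), where 50.0% of all peaks lay by construction and 33.3% (30.7 to 35.9%) of other non-coding peaks. Within pseudogenes the share was 30.5% (24.8 to 36.8%) for the transcribed type and 18.3% (12.4 to 26.2%) for the other type. These intervals overlapped. A −log10 of at least 100 was reached by 6 peaks of transcribed pseudogenes, or 2.69%, and by 1 of the other type, or 0.833%, against 10.3% of protein-coding peaks. The median length was 180 bases for pseudogene peaks, with a range from 59 to 1199, and 211 for protein-coding peaks. Reads per peak are not part of the list, which leaves its depth unknown, and the part of RNA abundance in these scores was not tested.

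**Figure D1:**
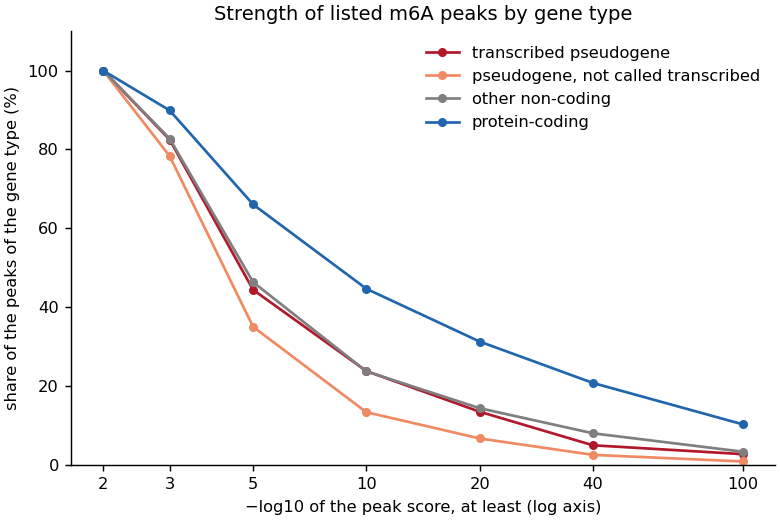
Share of the peaks of each gene type, in percent, whose −log10 score reached at least the value on the log horizontal axis, for transcribed pseudogenes (223 peaks), pseudogenes not called transcribed (120), other non-coding genes (1241) and protein-coding genes (17147). At 10, the shares were 23.8%, 13.3%, 23.7% and 44.6%, and at 40 they were 4.93%, 2.50%, 7.98% and 20.8%, so the transcribed pseudogenes ran close to the other non-coding genes at 10 and lay below them at 40.

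A few pseudogene peaks nevertheless ranked among strong peaks. The strongest was the 808-base peak of C19orf48P at chr19:50797853-50798660, listed at a score of 0, which shared no base with a peak of another gene and lay 92.0% of the way along the gene. The second was SCAND2P at 1e-190, the third RPS26P19 at 1e-137, and then came RABGEF1P1 at 1e-124 with a 930-base peak. CENPBD1P held the next 3 places at 1e-119, 1e-119 and 1e-116, and these overlapped one another: 1 came from the first part of the list and 2 from its second part, which lists some regions again. FAM86DP followed at 7.9e-69 with the longest peak of 1199 bases, then CSPG4P12 at 6.3e-56 and GUSBP11 at 3.2e-55. C19orf48P stands in RefSeq as a transcribed pseudogene, and its gene type in the annotation used for the peaks was not used here.

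Pseudogene peaks often lay on the same bases as a peak of another gene. At least 1 base was shared with a peak of another gene by 84 of the 343 peaks, 24.5% (20.2 to 29.3%), against 15.5% of all peaks and 11.2% (10.7 to 11.7%) of protein-coding peaks. Other non-coding peaks were at 25.8% (23.4 to 28.3%), near the pseudogenes, and peaks of IDs with no RefSeq type at 53.0% (50.5 to 55.5%). The share was 37.5% (29.4 to 46.4%) for pseudogenes not called transcribed and 17.5% (13.1 to 23.0%) for transcribed ones. A peak on the same strand was shared by 44 peaks or 12.8% (9.70 to 16.8%), against 3.98% (3.70 to 4.28%) of protein-coding and 4.51% (3.49 to 5.81%) of other non-coding peaks. A peak on the opposite strand was shared by 41 peaks or 12.0% (8.93 to 15.8%), against 7.55% (7.17 to 7.96%) and 21.9% (19.7 to 24.3%), so there the other non-coding genes were higher. Peaks that shared bases had a median −log10 score of 5.40, and the 259 that shared none had 4.13. All peaks of 56 pseudogenes shared bases, and 69 pseudogenes had at least 1 such peak.

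**Figure D2:**
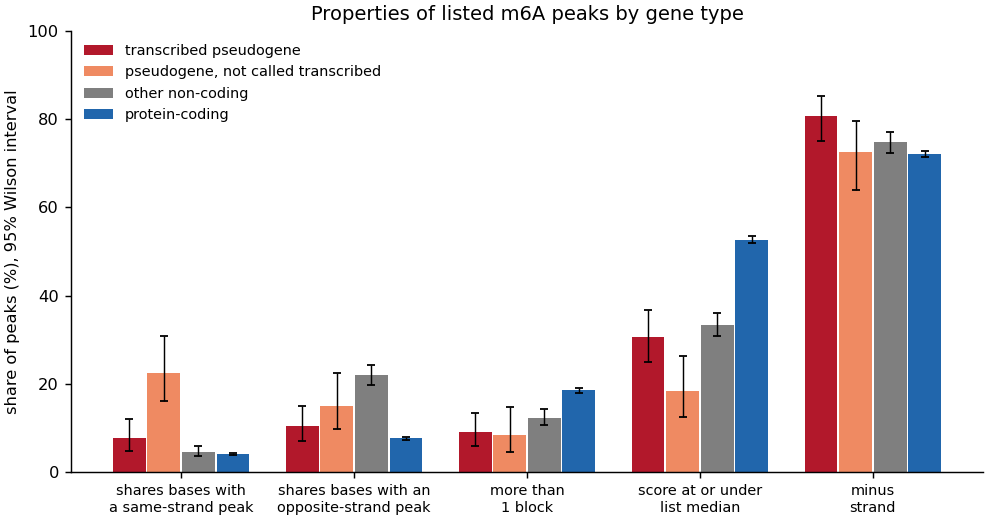
Share of peaks, in percent, with each of 5 properties by gene type. Bars give the share and whiskers its 95% Wilson interval. Same-strand sharing was 22.5% for pseudogenes not called transcribed, 7.62% for transcribed pseudogenes, 4.51% for other non-coding and 3.98% for protein-coding genes.

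Protein-coding genes were the most frequent partners, but less so than by their 17147 of the 20261 listed peaks. The 84 peaks formed 85 pairs with peaks of other genes, and in the 58 pairs of a pseudogene with a parent by symbol the partner was the parent in 0 cases. A copy at another place in the genome cannot share bases with its parent, so this count does not bear on reads placed on both. Of the 44 pairs on the same strand, 27 were with a protein-coding gene, 4 with a lncRNA, 4 with another pseudogene and 9 with an ID that had no RefSeq type. Of the 41 on the opposite strand the numbers were 21, 7, 6 and 7. On both strands the protein-coding part was thus smaller than in the list. The IDs with no RefSeq type, which held 1530 listed peaks, and the pseudogenes, with 343, made up a larger part. The cause of this was not tested. Pairs of 2 pseudogene peaks are counted from both sides, so that 80 different pairs were present.

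The strongest same-strand case was a ribosomal protein copy. RPS26P19, a copy of a small-subunit ribosomal protein gene, had a 349-base peak at chr2:127846736-127847084 that lay wholly within the 1045-base peak of POLR2D, a subunit of RNA polymerase II. The score was 1e-137 for RPS26P19 and 0 for POLR2D, and the POLR2D peak was thus the stronger. RPL32P29 had 391 of 403 peak bases in common with RPS29, itself a ribosomal protein gene, with scores of 6.3e-39 and 6.3e-38. RPL39P5 had 187 of 210 bases in common with AMOTL2, an angiomotin family gene, but the score of AMOTL2 was 1e-113 against 1e-27. The 2 peaks of LRRFIP1P1 that shared bases did so with KCNMB3, which encodes a potassium channel subunit, at 1e-12 and 1.3e-07 against 2e-13 and 1.6e-08. All 3 peaks of GNL3LP1 shared bases with ERCC8, a DNA repair gene. For the strongest of these 3, the score was 2.5e-13 for GNL3LP1 and 2.9e-09 for ERCC8.

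Opposite-strand pairs could be just as close. SCAND2P had a plus-strand peak of 390 bases at chr15:84643317-84643706 wholly within a minus-strand peak of WDR73, a WD-repeat protein gene, with scores of 1e-190 and 1e-191. AHSA2P, a copy related to an HSP90 cochaperone gene, had 660 of 690 bases in common with USP34, a ubiquitin protease gene, at 4e-52 and 5e-52. RAB11FIP1P1 and FTX, a lncRNA gene of the X-inactivation centre, had the same score of 1.6e-12 over 851 shared bases. ASS1P12 lay wholly within a peak of APTX, a DNA repair gene, at 2e-09 and 3.3e-09. Not all pairs were close: HMGN2P46 was at 4e-19 and SLC30A4, a zinc transporter gene, at 1.6e-25.

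Scores lay within 10% of each other in log10 for 26 of the 44 same-strand pairs, 59.1% (44.4 to 72.3%), and for 17 of the 41 opposite-strand pairs, 41.5% (27.8 to 56.6%). Identical scores were found for 5 pairs on each side. The partner was stronger in 23 same-strand pairs and the pseudogene in 16. On the opposite strand the numbers were 21 and 15. The library kit keeps the strand, but whether the peak caller used the strand is not given in the sources used here, so reads of a pseudogene and of an overlapping gene could not be told apart on either strand. These peaks are therefore uncertain as peaks of the pseudogene.

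**Figure D3:**
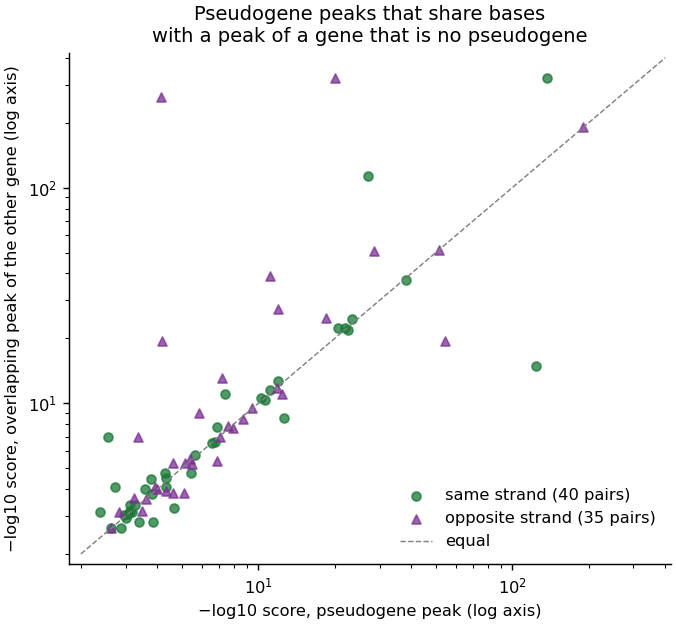
−log10 score of the pseudogene peak (horizontal) and of the overlapping peak of the other gene (vertical), both on log axes, for the 75 pairs in which the other gene is no pseudogene. Circles are the 40 same-strand and triangles the 35 opposite-strand pairs, the dashed line marks equal scores, and a score of 0 is drawn at 323. Many points lie along the line, with RABGEF1P1 (1e-124 against 1.3e-15 for an ID with no RefSeq type) and GUSBP11 (3.2e-55 against 4e-20 for RGL4) far to the right of it.

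More pseudogene peaks lay inside another gene than shared a peak with it. By RefSeq spans, 144 of the 343 peaks, 42.0% (36.9 to 47.3%), were within the span of another gene, and 94 of them, 27.4% of all (23.0 to 32.4%), were within a protein-coding gene. The span was on the same strand for 77 peaks and on the opposite strand for 54, and 19 peaks lay in a span whose strand was not known, where a peak may count in more than 1 of these. MTND4P12, a nuclear copy of a mitochondrial respiratory chain gene, lay in PCBD2 on the opposite strand, and MXRA7P1 in PSMD14, a proteasome subunit gene, also on the opposite strand. Neither shared a base with another gene's peak. For the 102 of the peaks within another span whose pseudogene had a parent by symbol, the surrounding gene was the parent in 0 cases. The same limit holds here, since a copy at another place in the genome lies outside its parent. Conversely, 173 peaks on 101 pseudogenes, 50.4% (45.2 to 55.7%), neither lay within another span nor shared a base with another peak. These span shares were not computed for the peaks of other gene types, so whether they are particular to pseudogenes is unknown. Of all 343 peaks 280, or 81.6% (77.2 to 85.4%), lay wholly inside the span of their own pseudogene, and 36 pseudogenes had no peak wholly inside. At least partly within it were 305 peaks, 88.9% (85.2 to 91.8%), and 16 pseudogenes had no peak that touched it. The RPS26P19 peak and both peaks of TUBA5P, a tubulin copy, were not wholly inside.

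The strand of pseudogene peaks differed between those that shared bases with an opposite-strand peak and the others. Over all 343 peaks 267 were on the minus strand, 77.8% (73.2 to 81.9%), against 72.2% (71.5 to 72.9%) of protein-coding peaks, so the excess of minus-strand peaks was one that the whole list shared. It was 83.8% (78.8 to 87.8%) among pseudogene peaks that shared no base and 59.5% (48.8 to 69.4%) among those that did. Among the 76 plus-strand pseudogene peaks, 27 or 35.5% (25.7 to 46.7%) shared bases with a minus-strand peak, whereas 14 of 267 minus-strand peaks, 5.24% (3.15 to 8.61%), shared bases with a plus-strand one. For protein-coding genes the same shares were 12.0% (11.1 to 13.0%) and 5.83% (5.43 to 6.26%). An opposite-strand pair holds 1 plus-strand and 1 minus-strand peak by definition. Bases were shared with a peak on the same strand by 7 of the 76 plus-strand pseudogene peaks, 9.21% (4.53 to 17.8%). Among the 267 on the minus strand it was 37, or 13.9% (10.2 to 18.5%). With each gene counted 1 time, 73.2% (66.9 to 78.7%) of pseudogenes were on the minus strand. The cause of the strand imbalance was not tested.

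A parent could be read from the symbol for 139 of the 213 pseudogenes, which named 117 protein-coding parents. The parent carried a peak for 76 of these 139, 54.7% (46.4 to 62.7%), and 65 of the 117 parents did, 55.6% (46.5 to 64.2%), beside 40.8% of all RefSeq protein-coding genes. By type the share was 45 of 83 or 54.2% (43.6 to 64.5%) for pseudogenes not called transcribed and 31 of 56 or 55.4% (42.4 to 67.6%) for transcribed ones. The parents and the background differ in more than having copies, and their expression was not measured by the list. The median strongest score was 3.65e-05 for the pseudogenes with a listed parent and 9.3e-06 for those whose parent was not listed.

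The parent was the stronger in 69 of the 76 cases, and the median strongest score of listed parents was 2.5e-23. Protein-coding peaks were stronger as a class, with a median −log10 of 7.96 against 4.43. Listed protein-coding genes also had more peaks, 2.10 against 1.61 per gene. The strongest scores of all listed protein-coding genes were not computed. Whether 69 of 76 is particular to parents and their copies is therefore unknown. Prothymosin alpha, PTMA, was listed at 0 and its copy PTMAP4 at 6.9e-06. Its other listed copy, PTMAP2, was at 0.00025. The PTMAP4 peak shared 179 of its 202 bases with an opposite-strand peak of the lncRNA gene LINC00987, at 5e-06. CSPG4, a cell surface proteoglycan gene, had 8 peaks with a smallest score of 1e-69 and its copy CSPG4P12 was at 6.3e-56, with a peak that lay off its RefSeq span. MXRA7 was at 2e-96 and MXRA7P1 at 1e-38. GEMIN8, a part of the SMN complex, was at 1.6e-33 and GEMIN8P4 at 5e-28. USP32P2, at 6.3e-11, stood far below USP32 at 1e-222. Its only peak lay wholly within a same-strand peak of the lncRNA gene FAM106A, at 2.5e-11. The PTMAP4 and USP32P2 peaks are thus also uncertain as peaks of the pseudogene.

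The 7 exceptions ranged from wide to slight. RABGEF1P1 was at 1e-124 and its parent RABGEF1, an activator of RAB5 in endosomes, at 2.5e-12. GUSBP11 was at 3.2e-55 and GUSB, the lysosomal beta-glucuronidase gene, at 6.3e-13. ZNRF2P2 was at 1.6e-21 and ZNRF2, a ubiquitin ligase gene, at 4.5e-07. GNL3LP1 was at 2.5e-13 and GNL3L, a nucleolar GTPase gene, at 6.3e-07. The strongest peak of each of these 4 shared bases with a weaker peak of a gene other than the parent. The shared part was 42.5% of the peak for RABGEF1P1, 18.2% for GUSBP11, 45.8% for ZNRF2P2 and 50.5% for GNL3LP1. The partner was on the opposite strand for GUSBP11 and ZNRF2P2, and on the same strand for RABGEF1P1 and GNL3LP1. The partner scores for RABGEF1P1, GUSBP11, ZNRF2P2 and GNL3LP1 were, in this order, 1.3e-15, 4e-20, 4.1e-09 and 2.9e-09. The ZNRF2P2 peak did not lie wholly inside its own span. Whether the overlap has a part in these differences was not tested. RPL7P50, RPL23AP7 and UPF3AP3 differed little from their parents, with 1.1e-05 against 1.7e-05, 1.5e-05 against 8.9e-05 and 0.0023 against 0.003.

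**Figure D4:**
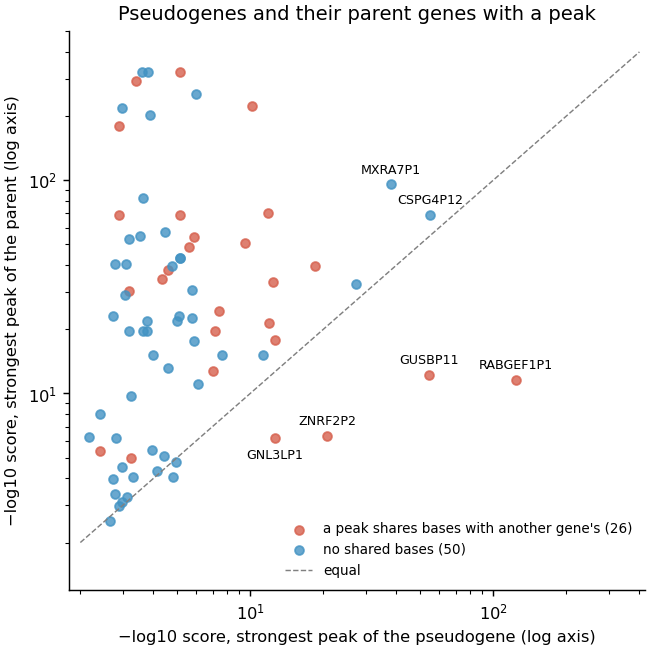
−log10 score of the strongest peak of each pseudogene (horizontal) and of its parent (vertical), both on log axes, for the 76 pseudogenes whose parent carried a peak. Red points have a peak that shares bases with a peak of another gene (26) and blue points have none (50), and a score of 0 is drawn at 323. Most points lie above the dashed line of equal scores, and the 4 farthest below it, RABGEF1P1, GUSBP11, ZNRF2P2 and GNL3LP1, are all red.

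Strong pseudogene peaks were also found where the parent had none. The strongest of these were RPS26P19 at 1e-137 and RPL32P29 at 6.3e-39, both on bases shared with another gene's peak, followed by CIDECP1 at 1e-38, DUXAP10 at 1.6e-29 and RPL39P5 at 1e-27. CIDECP1 is a copy of the lipid droplet gene CIDEC, and its peak at chr3:10017724-10017963 shared no base with another peak and lay 96.6% of the way along its span. DUXAP10, a copy of a homeobox gene, also shared none. The parents with most listed copies were KRT8 with 4, and DNM1 and RPL32 with 3 each, while 15 parents had 2. KRT8, a keratin of simple epithelia, had 4 peaks of its own with a smallest score of 2e-20, and its copies KRT8P12, KRT8P33, KRT8P46 and KRT8P30 reached 6.6e-08, 0.00018, 0.00024 and 0.00069. The KRT8P12 peak shared 125 of its 206 bases with an opposite-strand peak of KPNA4. DNM1, which encodes a dynamin, and RPL32 had 0 peaks. Whether reads of a parent were also placed on its copy was not tested, since the list holds no reads.

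Among families, copies of ribosomal protein genes were the most numerous, yet only 20 of 1989 RefSeq members were listed, 1.01% against 1.25% of all RefSeq pseudogenes. They held 22 peaks, of which 8 shared bases with another gene's peak and 12 lay within another gene's span. Over all pseudogene peaks these shares were 24.5% and 42.0%. Of their 16 parents 5 carried a peak, beside 55.6% of all 117 parents, which rests on few genes. RPL12P28, RPL17P47 and RPL9P25 shared bases on the same strand with ANKRD16, ZNF625 and TIPIN, and RPS9P1 on the opposite strand with CBR3-AS1. Copies of HMG protein genes, which encode chromatin proteins that bend DNA or bind nucleosomes, were listed for 7 of 178, or 3.93%. Their 4 parents, HMGA1, HMGB1, HMGN1 and HMGN2, all carried a peak, again a count of few genes. For HMGA1 the smallest score was 1.6e-22, and its copies HMGA1P8 and HMGA1P3 were at 1e-05 and 0.00018. For HMGB1 it was 2e-41, with HMGB1P1 at 0.00085 and HMGB1P8 at 0.0017.

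Other families had few listed members. Keratin copies were 6 of 139 (4.32%), tubulin copies 2 of 56 (3.57%), heat shock copies 2 of 90 (2.22%) and hnRNP copies 2 of 127 (1.57%), each share above the 1.25% of all RefSeq pseudogenes but resting on few genes. Of 474 mitochondrial copies MTND4P12 alone was listed, at 1e-13, while MT-ND4 had 2 peaks with a smallest score of 1e-133. GTF2I copies were 2 of 22, CROCC copies 2 of 5, PMS2 copies 1 of 15 (PMS2CL), STAG3 copies 1 of 5 (STAG3L3) and GUSB copies 1 of 19, which are also above that share. Copies of SMG1, NSUN5, POM121, NPIP, WASH, NBPF, PKD1 and the actins were listed 0 times, and of 10 pseudogenes sought by name 1, MSTO2P, had a peak, at 0.00033. A pair of groups was chosen after their values were seen: zinc finger copies, 10 of 104 with 37 peaks and a strongest score of 1e-49 for ZNF204P, and FAM86 copies, 5 of 12 with 12 peaks, led by FAM86DP. The genes FAM86A, FAM86B1 and FAM86B2 had 0 peaks.

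The position of the peaks differed with the size of the pseudogene. Spans of at most 3000 bases, as an intronless copy would have, were found for 88 of the 96 pseudogenes not called transcribed, whose median span was 1199 bases, and for 11 of the 117 transcribed ones, whose median was 16297. In longer spans, 112 of the 175 peaks inside them, 64.0% (56.7 to 70.7%), had their midpoint in the last of 3 equal parts, close to the 62.0% (61.3 to 62.8%) of 15403 peaks in protein-coding genes of that size. In compact spans it was 24 of 105 peaks, 22.9% (15.9 to 31.8%), against 37.2% (33.2 to 41.3%) of 541 peaks in protein-coding genes of at most 3000 bases. The median position was 44.4% of the compact span and 81.4% of the longer one. Regions that the second part of the list gives again were counted as separate peaks here. CENPBD1P alone, with such regions, gave 9 of the 105 peaks in compact spans. A peak inside a compact span has its midpoint kept from the ends by its own length, of median 176 bases, and where a copied reading frame lies within these spans was not used here.

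**Figure D5:**
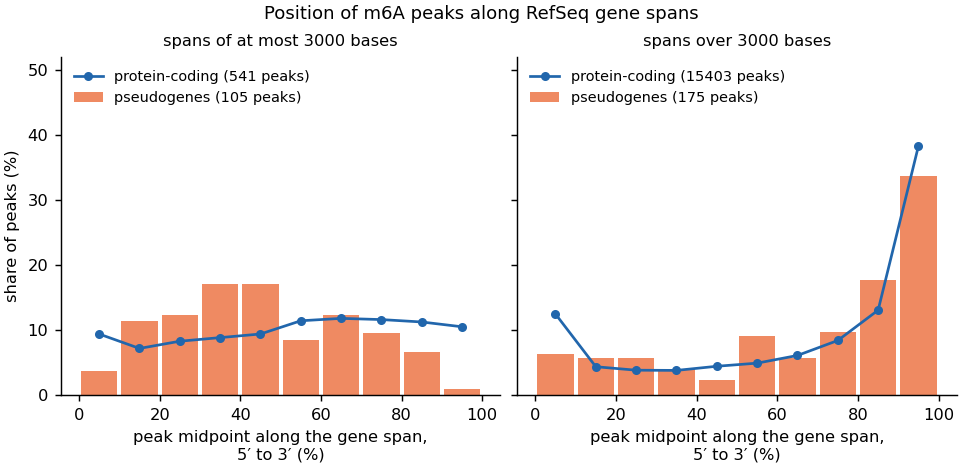
Share of peaks, in percent, by the midpoint of the peak along the RefSeq span of its gene from the 5′ to the 3′ end, in steps of 10%, for spans of at most 3000 bases (left) and longer ones (right). Bars are pseudogenes and the line protein-coding genes. In longer spans the last step held 33.7% of pseudogene and 38.3% of protein-coding peaks, and in compact spans 0.952% and 10.5%.

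Spliced peaks were few. More than 1 block, meaning that a peak ran over an exon junction, was found for 30 pseudogene peaks on 29 genes, 8.75% (6.20 to 12.2%), against 18.5% (17.9 to 19.1%) of protein-coding and 12.2% (10.5 to 14.2%) of other non-coding peaks. Among peaks wholly inside a span of at most 3000 bases it was 1 of 105, against 39 of 541, or 7.21%, in protein-coding genes. This count leaves out peaks that reach beyond the span, as a spliced peak often would. Without that limit, 10 of the 30 belonged to pseudogenes with such a compact span. The 1 of 105 therefore does not show that peaks of compact copies were unspliced. Of the 30, 18 were not within the RefSeq span of their pseudogene. The strongest were CSPG4P12 with 3 blocks, and LRRC37A17P at 3.2e-29 and RPL39P5 at 1e-27, with 2 blocks each. The 30 were stronger than the rest, with a median −log10 score of 9.13 against 4.26 for the 313 peaks in 1 block. For RPL39P5 the blocks spread over chr3:134352091-134356561, which is wider than a processed copy, and the gene model behind it was not used here.

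The second part of the list held 36 of the pseudogene peaks, 10.5% (7.68 to 14.2%), against 3.55% (3.28 to 3.84%) of protein-coding peaks. They lay on 20 pseudogenes, 8 of which were listed nowhere else. CENPBD1P and ZNF37BP accounted for 6 each. All 6 on CENPBD1P shared bases with its peaks in the first part, as did 3 of the 6 on ZNF37BP. The CENPBD1P peak of 743 bases in the first part and those of 841 and 836 bases in the second covered 1 region near chr16:89969893-89970733. The number of distinct regions on these genes is therefore smaller than their 9 peaks.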

How the data were processed

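The 4 m6A-seq libraries were aligned by the authors with STAR to the GENCODE v33 transcriptome (build hg38 in the submitters' processing notes), keeping reads with up to 20 locations, and peaks were called with exomePeak and filtered on fold enrichment (1 or more) and FDR (0.05 or less). Deposited scores were treated as p-values from that caller, although no header names them and an FDR is possible. Replicates had been combined, no read counts are given and the depth per peak is unknown, so no test between samples was made. Coordinates were written from 1.

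Gene IDs were matched to symbols without their version (10103 of 10140), and 9093 IDs obtained a RefSeq gene type and span on GRCh38.p14. The other 1047 could not be placed, so pseudogenes among them were missed. The parent was the protein-coding symbol left when P and any number were cut from the end of the symbol. Sharing meant at least 1 base in common, block by block, with a peak of another gene. Shares were given with 95% Wilson intervals (scipy 1.17.1, Python 3.11.15, pandas 2.3.3), and the overlap, parent and interval functions were tested on simulated data. Genes were named by a rule: the 10 smallest scores, the 5 genes with most peaks, the 10 strongest with and the 5 without a listed parent, the 10 strongest that shared bases and the 5 that did not, the 5 parents with most copies, and set families. Examples beyond this rule, such as USP32P2, ASS1P12 or RAB11FIP1P1, were chosen after their values were seen. The pseudogenes, families and comparisons were chosen with earlier results of these data known. Alternatives were stricter scores, same-strand sharing, at least 50% shared bases, the first part of the list, merged peaks, type by symbol and other ways to count parents and strands.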

Additional observations from a re-analysis of the deposited data

How the results depend on the processing

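No paired analysis was possible because replicates were combined before deposit, and for the same reason no library could be left out. Restricted to scores at or under the list median, 90 peaks on 64 pseudogenes remained. With the same cut on the peaks of partners and parents, 33.3% shared bases with another gene's peak and 39.5% had a parent with a peak. The share of all protein-coding genes with a peak was not computed at this cut, so 39.5% cannot be set against 40.8%. Counting the same strand only, the share was 12.8% for shared peaks and 22.4% for peaks within another span. Without peaks that shared bases the minus-strand share was 83.8%. The lower counts follow from the stricter choice, and for the other shifts the cause was not tested. The other alternatives moved counts by less than 1.5 times and shares by less than their intervals: 327 peaks with pseudogenes taken by symbol, 307 in the first part of the list alone, 322 after merging, 21.3% sharing at least 50% of their bases, and 54.8% with a parent also sought by like-gene and older symbols. The median score was 4.6e-05 in the first part of the list, an alternative chosen after seeing the data. Unknown depth, combined replicates, shared reads between copies and 1047 unplaced gene IDs limit every value.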
